A study of Homo sapiens with 22 samples.

Results

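CTCF binding was compared between K562 cells that had received 25 nM PMA for 72 h and cells at 0 h, with 2 libraries in each group. The regions described are all those of the CTCF region table on chromosomes 1-22 and X, 65346 of 66168, chosen by position alone. Of these, 57354 (87.8%) passed a filter on low counts and were tested, and 7992 did not. K562 is an established human leukemia line, labelled WT in every group, and PMA is a phorbol ester that moves it toward a megakaryocyte-like state. Aliquots of 500000 formaldehyde-fixed cells went into antibody-directed cleavage (CNR in the sample titles, taken here as CUT&RUN). A middle group of 2 libraries at 6 h shared the model, and Rad21, H3K27ac and Jun libraries of the same time course were read at the same places. Whether the antibodies were used on separate cultures is not stated, so these readouts may not be independent of the CTCF libraries. The labels number the libraries of a group as replicates without saying that they came from separate cultures, so the p-values measure the spread between these libraries, which may be technical. RNA markers of the cell state were not analysed here.

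CTCF is a zinc-finger protein that binds a long, conserved DNA motif and acts as an insulator. The cohesin ring, of which Rad21 is a subunit, extrudes DNA loops and halts at bound CTCF, so that CTCF sites become loop anchors and domain borders. Most CTCF sites are shared between cell types, and a minority changes during differentiation. Signal from cells in bulk cannot tell fewer bound cells from less binding per cell.

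Counts in CTCF regions summed to between 2553677 and 6068421 per library, with a median of 18 to 54 counts per tested region. Mitochondrial regions took 17.8% and 22.1% of them in the 0 h libraries, 30.5% and 20.4% in the 6 h libraries and only 9.55% and 9.63% in the 72 h libraries. Levels are given as CPM, the counts scaled to a library of 1000000 after TMM correction, and changes as log2 fold changes of 72 h over 0 h with the standard error (SE).

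Sequence was read only in promoter windows, which overlap a CTCF region by at least 1 base and need not hold its centre. RefSeq windows of 300 bases around gene starts (250 before, 50 after; GRCh38.p14) were searched on both strands for core letters of the CTCF motif (CCA, AG and GGC, with 2 unspecified bases in each gap). The letters occurred in 8.52% of 1573 windows assigned to a stable CTCF region, in 6.45% of 279 at a region called lower and in 3.15% of 254 at a region called higher. They occurred in 1.66% of 26813 windows with no tested CTCF region and in 2.41% of all 34961 windows. A stretch of 150 bases is shown for the 2 stable promoters with the most CTCF signal among those that hold the letters, and for a promoter with the letters where CTCF rose, each 5′ to 3′ on the strand of the gene, with the motif letters (or their reverse complement) in capitals.
PRAME, chr22:22559266-22559415, minus strand: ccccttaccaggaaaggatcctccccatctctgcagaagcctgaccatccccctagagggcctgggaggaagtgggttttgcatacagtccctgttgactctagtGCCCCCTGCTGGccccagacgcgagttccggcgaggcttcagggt
CCDC59, chr12:82358826-82358975, minus strand: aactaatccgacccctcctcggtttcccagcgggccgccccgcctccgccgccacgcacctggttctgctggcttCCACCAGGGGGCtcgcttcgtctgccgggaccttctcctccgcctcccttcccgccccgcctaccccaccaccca
DENND2B-AS1, chr11:8768628-8768777, plus strand: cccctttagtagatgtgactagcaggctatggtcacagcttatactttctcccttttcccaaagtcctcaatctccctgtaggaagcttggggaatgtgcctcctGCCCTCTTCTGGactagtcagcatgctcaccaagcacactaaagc
The PRAME promoter (PRAME is a tumour antigen gene) held 177 and 175 CPM of CTCF at 0 h and 141 and 133 CPM at 72 h. Its log2 fold change of -0.37 had a 95% interval of -0.98 to 0.24. The CCDC59 promoter held 95.8 and 89.9 CPM at 0 h and 87.3 and 79.9 CPM at 72 h (log2 fold change -0.15, interval -0.74 to 0.43). The other readouts did change at these stable promoters. Rad21 was called higher at CCDC59 (1.105, edgeR adjusted p 0.0138) and was not called at PRAME (0.03). H3K27ac was called lower at CCDC59 (-1.26) and PRAME (-0.85), and so was Jun (-1.68 and -0.95). At the DENND2B-AS1 promoter, CTCF went from 4.08 and 4.69 CPM to 11.8 and 15.03 CPM, a log2 fold change of 1.62 (SE 0.39, edgeR adjusted p 0.0233). Rad21 at that place rose by 1.66 (SE 0.45, adjusted p 0.0103) and H3K27ac by 2.41 (SE 0.17, adjusted p 2.09e-12). Jun rose there by 1.24 (edgeR adjusted p 4.25e-05).

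Across the genome, CTCF changed at a minority of regions. Of 57354 tested regions, 3905 (6.81%) passed an adjusted p of 0.05. CTCF was higher at 72 h in 2324 (4.05%) and lower in 1581 (2.76%). Another 12157 regions (21.2%) were stable, meaning not called and with a 95% interval of the log2 fold change wholly inside -1 to 1, that is less than 2-fold either way. The remaining 41292 (72.0%) were unresolved: their interval reached past 2-fold and their change was not called. An unadjusted p under 0.05 was found at 16351 regions. Scaling to the total counts in place of TMM moved the median log2 fold change of the tested regions from 0.03 to 0.25 and the share of calls in the higher direction from 59.5% to 91.3%, with 6481 higher and 620 lower. Calls numbered 159 without replicate 1 at 0 h, 15 without replicate 2 at 0 h, 492 and 389 without replicates 1 and 2 at 72 h, and 10292 and 10263 without replicates 1 and 2 at 6 h.

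The levels of each class are a description, since the same change defines the class, and a region with little signal at 0 h passed the count filter through the libraries where it was high. The median level of the higher class was 1.78 and 1.44 CPM in the 0 h libraries, 4.53 and 3.25 CPM at 6 h, and 8.29 in both 72 h libraries. For the lower class it was 24.2 and 27.1 CPM at 0 h, 16.8 and 18.3 CPM at 6 h, and 11.1 and 11.7 CPM at 72 h. Stable regions held 16.8 and 16.96 CPM at 0 h and 16.1 and 15.9 CPM at 72 h. The median log2 fold change was 2.33 in the higher class (2.32 with the 74 regions that had no count at 0 h set to a bound of 3 counts over the group), -1.16 in the lower class and -0.08 in the stable class. Split into 4 groups of equal size by mean level, the lowest group (up to 3.68 CPM) held few stable regions: 883 were higher, 58 lower and 5 stable. In the highest group (from 15.3 CPM), 237 were higher, 950 lower and 6882 stable. The 0 h and 72 h libraries did not overlap at 63.8% of all tested regions, at 32.8% of stable regions, at all 2324 higher regions and at 1580 of 1581 lower regions.

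**Figure D1:**
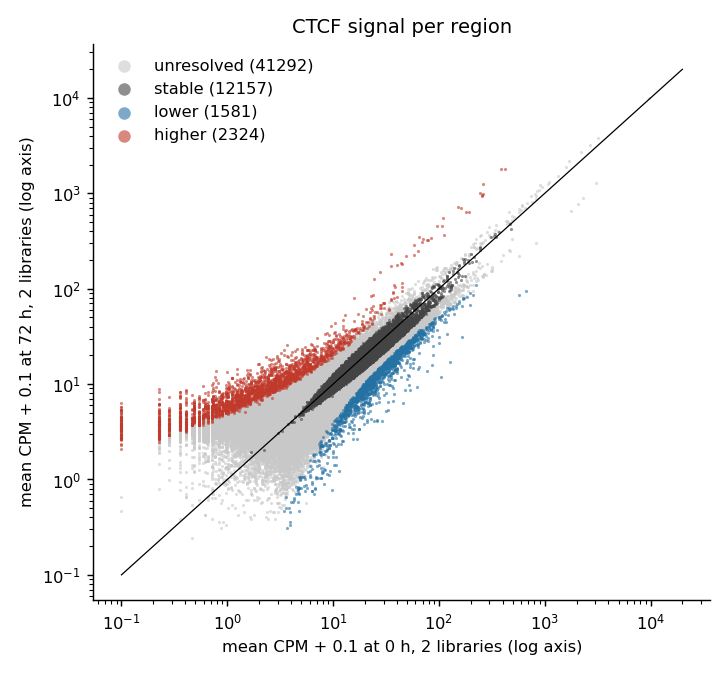
Mean CTCF level of each tested region at 0 h and at 72 h, on log axes with 0.1 CPM added, coloured by class (2324 higher, 1581 lower, 12157 stable, 41292 unresolved). The median level at 0 h was 1.61 CPM for higher, 25.3 CPM for lower and 16.9 CPM for stable regions.

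The deposited peak lists, called per library, give a second view of the same libraries. Among regions called higher, 684 (29.4%) had no peak in either 0 h library and a peak in both 72 h libraries, against 4.58% of all tested regions. With weaker peaks (−log10 q under 10) left out, that share of higher regions was 11.8%. Another 401 higher regions had no peak in either 72 h library. Among regions called lower, 1451 (91.8%, against 39.5% of all tested) had a peak in both 0 h libraries. In both 72 h libraries 877 (55.5%, against 41.1% of all tested) still had one. Peaks present in both 0 h libraries were absent from both 72 h libraries at 243 (15.4%) of the lower regions, against 2.003% of all tested regions. Of the stable regions, 8935 (73.5%) had a peak in all 4 libraries, against 31.3% of all tested regions. Few regions of low level could be called stable, as given above.

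Cohesin was then read at the same places from the Rad21 libraries. Of the 2324 higher CTCF regions, 1781 overlapped a tested Rad21 region, and Rad21 was called higher at 1252 of these (70.3%) and lower at 7. Over all tested CTCF regions with Rad21, 15.5% were called higher and 7.38% lower. The median Rad21 level at higher CTCF regions was 2.99 and 3.17 CPM at 0 h and 10.4 and 9.61 CPM at 72 h. Where CTCF was lower, Rad21 was called lower at 333 of 1255 regions (26.5%) and higher at 7, with a median log2 fold change of -0.62. At stable CTCF regions, Rad21 was called higher at 373 and lower at 619 of 9496 (median -0.19). The share called lower became 7.997% without Rad21 replicate 1 at 0 h, 27.2% without replicate 2 at 0 h, and 7.29% and 5.95% without Rad21 replicates 1 and 2 at 72 h.

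H3K27ac, the acetylation of active promoters and enhancers, was present at most regions that gained CTCF. A tested H3K27ac region overlapped 1657 of the 2324 higher regions, and acetylation was called higher at 1350 of them (81.5%) and lower at 181. Over all tested CTCF regions with H3K27ac, 35.7% were called higher and 46.4% lower. The median H3K27ac level at higher CTCF regions was 1.53 and 1.48 CPM at 0 h and 19.6 and 19.96 CPM at 72 h. Only 593 of the 1581 lower regions overlapped a tested H3K27ac region, and acetylation was called lower at 409 (68.97%) and higher at 62. Of the 12157 stable regions 29.4% overlapped an H3K27ac region, against 71.5% of higher and 37.5% of lower regions.

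Jun, a subunit of the PMA-responsive factor AP-1, overlapped 84.8% of higher, 39.0% of lower and 40.2% of stable CTCF regions. It was called higher at 1128 of 1963 higher CTCF regions (57.5%) and lower at 396. Over all tested CTCF regions with Jun, 16.2% were called higher and 52.8% lower. At lower CTCF regions Jun was called lower at 419 of 603 (69.5%) and higher at 8. All 3 readouts were called higher together at 750 of the 2324 higher regions (32.3%) and at 3.73% of all tested CTCF regions. Among the 663 higher regions with no H3K27ac region, Rad21 was called higher at 199 of the 327 where it was tested (60.9%), against 10.6% over all tested CTCF regions of that kind.

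**Figure D2:**
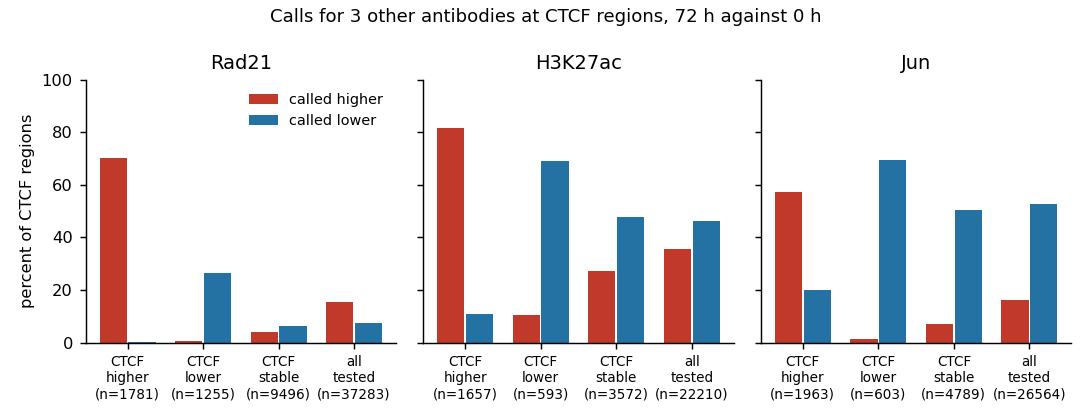
Percent of CTCF regions at which Rad21, H3K27ac or Jun was called higher or lower at 72 h, for CTCF regions called higher, called lower, stable and all tested. Rad21 was called higher at 70.3% of higher CTCF regions and lower at 26.5% of lower ones, against 15.5% and 7.38% of all tested.

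Positions were compared with gene starts. The median distance of lower regions to a gene start was 14652.5 bases, against 25479 for higher, 23340.5 for stable and 22376 for all tested regions. Within 1 kb of a gene start lay 14.7% of lower, 10.4% of higher, 12.3% of stable and 14.1% of all tested regions. A promoter window was overlapped by 205 lower regions (13.5%) and by 188 higher regions (8.499%), against 9.93% of stable and 10.9% of all tested regions, on the 22 chromosomes for which promoter sequences were used. The lower regions overlapped the windows of 257 genes, 211 of them protein-coding, and the higher regions those of 229 genes, 160 of them protein-coding.

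Most of the promoters with the largest CTCF losses held repeated CCAAT boxes, the element bound by the factor NF-Y. The SP2 window had 8 matches, SLC25A42 had 6, DOLPP1 had 5, TOP2A had 4, ROGDI had 3, TRAF2 had 2 and SPATC1L had none. None of these windows held the CTCF letters searched for above. The letters CCAAT or their reverse complement are in capitals in these stretches of promoters named for their large losses. The element was chosen for search after these sequences had been read.
SP2, chr17:47896086-47896235, plus strand: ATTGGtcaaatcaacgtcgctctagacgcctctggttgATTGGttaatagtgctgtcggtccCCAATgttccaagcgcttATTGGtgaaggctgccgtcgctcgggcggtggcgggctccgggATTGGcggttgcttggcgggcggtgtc
TOP2A, chr17:40417897-40418046, minus strand: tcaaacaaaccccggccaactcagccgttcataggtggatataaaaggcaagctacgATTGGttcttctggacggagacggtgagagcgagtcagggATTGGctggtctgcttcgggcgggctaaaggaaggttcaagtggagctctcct
DOLPP1, chr9:129080961-129081110, plus strand: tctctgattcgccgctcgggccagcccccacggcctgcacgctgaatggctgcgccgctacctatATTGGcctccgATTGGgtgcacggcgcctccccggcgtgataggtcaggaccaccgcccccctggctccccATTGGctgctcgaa
At SP2, which encodes a zinc-finger factor of the Sp family, the region chr17:47895745-47896428 held 77.5 and 133 CPM at 0 h, 19.4 and 15.1 CPM at 6 h and 9.45 and 14.2 CPM at 72 h. Both 72 h libraries lay far below both 0 h libraries (log2 fold change -3.12, SE 0.32, adjusted p 0.000682). At TOP2A, which encodes the DNA topoisomerase of dividing cells, chr17:40417802-40418276 went from 31.1 and 61.0 CPM at 0 h to 10.7 and 19.9 CPM at 6 h and 6.45 and 6.04 CPM at 72 h (-2.87, SE 0.35, adjusted p 0.00135). At DOLPP1, which encodes a phosphatase of dolichol recycling, chr9:129080718-129081335 went from 46.4 and 78.3 CPM to 13.3 and 7.73 CPM at 6 h and 9.22 and 9.27 CPM at 72 h (-2.74, SE 0.31, adjusted p 0.000866). At these promoters replicate 2 stood above replicate 1 at 0 h. Rad21 was not called at any of the 3, with log2 fold changes of -0.27, 0.00 and -0.46. Jun was called lower at all of them (-2.56, -2.75 and -2.69), and so was H3K27ac (-0.51, -1.18 and -1.99).

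Over whole classes, at least 2 CCAAT matches occurred in 187 of 279 windows at lower regions (67.0%). The share was 14.9% of 1573 windows at stable regions, 17.1% of 6042 at unresolved regions, 6.69% of 254 at higher regions and 10.7% of all 34961 windows. A match to the CTCF letters can begin with CCAAT, so the letters of both searches may overlap. Read the other way, from the sequence to the signal, CTCF was called lower at 31 of 3301 promoter regions with no match (0.939%), 35 of 1463 with 1 match (2.39%), 40 of 676 with 2 (5.92%) and 99 of 457 with 3 or more (21.7%). Calls in the higher direction ran from 3.76% with no match to 0.219% with 3 or more. With 3 or more matches the median level was 10.7 and 13.4 CPM at 0 h, 8.42 and 6.10 CPM at 6 h and 8.06 and 8.43 CPM at 72 h. With no match it was 5.86 and 4.69 CPM at 0 h, 6.47 and 4.48 CPM at 6 h and 7.37 and 7.45 CPM at 72 h. The median log2 fold change was -0.23 for the 1133 regions with at least 2 matches and 0.40 for the 4764 with fewer. With total counts scaling these medians were -0.0019 and 0.63, and leaving out each 0 h or 72 h library in turn gave -0.25 to -0.17 and 0.29 to 0.57. Leaving out a 0 h or 72 h library lowered the number called lower with at least 2 matches from 139 to between 2 (without replicate 2 at 0 h) and 37 (without replicate 2 at 72 h), and with fewer matches from 66 to between 1 and 7. Without replicates 1 and 2 at 6 h these numbers were 218 and 217 with at least 2 matches, and 235 and 219 with fewer.

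**Figure D3:**
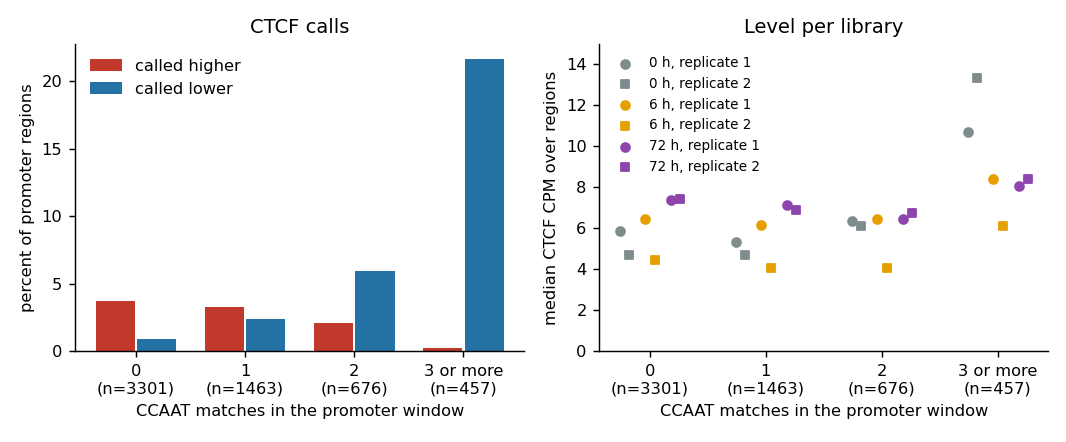
Left, percent of promoter regions at which CTCF was called higher or lower, by the number of CCAAT matches in the promoter window. Right, median CTCF level of the same regions in each library. The share called lower was 0.939% with no match and 21.7% with 3 or more, where both 0 h libraries lie above both 72 h libraries.

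The other readouts were read separately at lower regions at promoters and elsewhere. At the 139 lower regions whose promoter window had at least 2 CCAAT matches, Rad21 was called lower at 8 of 138 (5.80%), Jun at 136 of 137 and H3K27ac at 120 of 137. Among all 5897 promoter regions Rad21 was called lower at 149 of 5177 (2.88%), Jun at 3898 of 4800 and H3K27ac at 4014 of 5166. The 66 lower regions whose promoter window had fewer matches had Rad21 called lower at 11 of 59 (18.6%), Jun at 41 of 52 and H3K27ac at 45 of 49. At the 1376 lower regions at no promoter window, Rad21 was called lower at 314 of 1058 (29.7%), and their medians were 24.2 and 26.3 CPM of CTCF at 0 h and 11.2 and 11.8 CPM at 72 h. CTCF was already called lower at 6 h at 63 of the 139 (45.3%), 8 of the 66 (12.1%) and 48 of the 1376 (3.49%), against 0.328% of all tested regions. The 6 h comparison shares the 0 h libraries with the 72 h comparison. The differences between these kinds of region were not tested.

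The letters TGANTCA, the AP-1 element, were counted in the same promoter windows. They occurred in 47 of 254 windows at higher regions (18.5%), 2.51% of 279 at lower, 4.45% of 1573 at stable regions and 7.68% of all windows. The start of LINC00513, a long non-coding RNA gene, is shown with a match in capitals because CTCF, Rad21, H3K27ac and Jun all rose there.
LINC00513, chr7:130913214-130913363, plus strand: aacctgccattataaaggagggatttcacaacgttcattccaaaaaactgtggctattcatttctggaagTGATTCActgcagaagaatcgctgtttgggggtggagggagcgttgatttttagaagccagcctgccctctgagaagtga
The region chr7:130912988-130913538, shared with the start of LINC-PINT, held 2.55 and 2.17 CPM of CTCF at 0 h, 5.18 and 4.48 CPM at 6 h, and 15.2 and 12.2 CPM at 72 h. Its log2 fold change was 2.50 (SE 0.43, adjusted p 0.00543), with 2.22 for Rad21, 1.88 for H3K27ac and 1.67 for Jun. The smallest adjusted p among gains at promoters belonged to CCR1, a chemokine receptor gene of myeloid cells. Its region chr3:46208008-46208683 held 19.9 and 20.9 CPM at 0 h, 17.5 and 25.2 CPM at 6 h, and 63.1 and 58.4 CPM at 72 h, so that only the late libraries stood apart. CTCF rose there by 1.57 (SE 0.26, adjusted p 0.00506), and Rad21 by 0.94. H3K27ac was low there, with 0.11 and 0 CPM at 0 h and 1.7 and 1.86 CPM at 72 h. It was called higher all the same (4.88, edgeR adjusted p 1.99e-06), and so was Jun (1.19, edgeR adjusted p 0.0488). At CD276, an immune checkpoint gene, chr15:73683587-73684174 rose from 2.55 and 1.08 CPM to 13.6 and 12.1 CPM (2.72, SE 0.46, adjusted p 0.00542). The promoter windows of LINC00513, LINC-PINT, CCR1 and CD276 did not hold the CTCF letters.

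Away from promoters, the largest gains at well-measured regions (mean level at or above the median of 7.38 CPM) lay in introns or exons of gene spans, which the annotation used does not separate, or between genes. None of the 10 overlapped a promoter window, as 8.5% of all higher regions and 10.9% of all tested regions did. In the span of TBXAS1, thromboxane synthase of platelets, chr7:139889285-139889903 held 1.53 and 4.69 CPM at 0 h, 12.6 and 15.9 CPM at 6 h, and 22.1 and 20.4 CPM at 72 h (2.85, SE 0.40, adjusted p 0.00274). Rad21 rose by 2.75, H3K27ac by 1.54 and Jun by 1.65 at that place. In LINC00673, a long non-coding RNA gene, chr17:72430753-72431457 went from 3.57 and 3.61 CPM to 27.9 and 22.9 CPM (2.81, SE 0.34, adjusted p 0.00135) and overlapped no H3K27ac or Jun region. In STK32B, a kinase gene, chr4:5410223-5410701 went from 3.31 and 1.44 CPM to 16.4 and 20.4 CPM (2.87, SE 0.42, adjusted p 0.002996) with none of the 3 other readouts tested. The largest value, 3.14, belonged to chr16:87580722-87581249, which lies 735 bases from LOC124903749 and where Rad21 rose by 2.39 and H3K27ac by 3.92. Across the 10 regions Rad21 was called higher at 5 of 7, H3K27ac at 6 of 6 and Jun at 6 of 7. Over all tested CTCF regions with these readouts the shares were 15.5%, 35.7% and 16.2%.

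The 10 largest losses at well-measured regions lay between -3.12 and -2.62. Of these, 7 overlapped a promoter window, against 13.5% of all lower regions and 10.9% of all tested regions. Besides SP2, TOP2A and DOLPP1 these were the promoters of SPATC1L, TRAF2 (an adaptor of TNF receptor signalling), ROGDI and SLC25A42 (a mitochondrial coenzyme A carrier). H3K27ac and Jun were called lower at all 10, and Rad21 was called lower at none and higher at 2. Among all promoter regions H3K27ac was called lower at 77.7% and Jun at 81.2% of those tested. Over all tested CTCF regions with these readouts the shares were 46.4% and 52.8%. Rad21 was called lower at 7.38% and higher at 15.5% of all tested CTCF regions with Rad21. The other 3 losses rested on a single library. At chr3:144799049-144799572 the 0 h libraries held 1076 and 241 CPM and the 72 h libraries 44.7 and 143 CPM. Leaving out the first 0 h library moved its log2 fold change from -2.80 to -1.35, and that at chr19:42663239-42663736 from -2.74 to -1.08. The Rad21 gain at the former (3.02) also came from a single library, with 28.1 and 23.2 CPM at 0 h and 41.1 and 378 CPM at 72 h. The H3K27ac groups overlapped at all 3 places, with 597 and 43.5 CPM at 0 h and 12.02 and 84.02 CPM at 72 h at the chromosome 3 region. At the third, in the span of CFAP418-AS1 on chromosome 8, leaving out the same library moved it from -2.62 to -0.41.

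**Figure D4:**
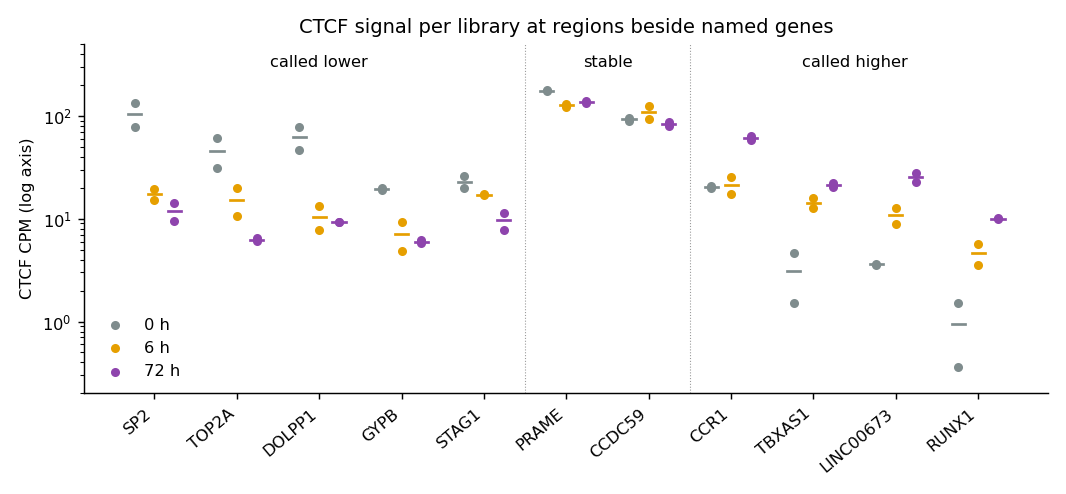
CTCF level in each library (points) and group mean (bars) at 0, 6 and 72 h on a log axis, for regions beside 5 genes where CTCF was called lower, 2 where it was stable and 4 where it was called higher. The 0 h and 72 h libraries do not overlap at the called regions.

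Genes of blood cell identity were examined in lists, counting tested regions in or within 10 kb of each gene. Megakaryocyte genes held 105 regions, of which 13 were higher, 3 lower and 16 stable, so 15.2% were called against 6.81% of all tested regions. Their median log2 fold change was 0.65, against 0.03 for all. Rises lay at ETS1 (4 regions), ITGA2 (2), RUNX1 (2), ZFPM1 (2), VWF, F2R and ITGB3. In RUNX1, a master regulator of megakaryocytes, chr21:34807496-34808035 went from 1.53 and 0.36 CPM at 0 h to 9.91 and 10.1 CPM at 72 h (3.25, SE 0.59, adjusted p 0.0074), with Rad21 up by 2.50 and H3K27ac by 4.77. In ITGA2, a collagen receptor subunit of platelets, chr5:53069661-53070165 rose from 1.27 and 0.72 CPM to 8.76 and 6.74 CPM (2.86, SE 0.73, adjusted p 0.0304). In VWF, the adhesive glycoprotein of platelets and endothelium, chr12:6069327-6069663 rose from 1.02 and 0.36 CPM to 5.07 and 4.92 CPM (2.71, SE 0.79, adjusted p 0.0472). The rises at ZFPM1, a GATA1 cofactor, were 1.55 and 2.29, at places where H3K27ac (-1.03 and -0.75) and Jun (-2.06 and -1.63) were called lower.

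Losses beside megakaryocyte genes lay in neighbouring genes or in NFE2L2 (-0.97), a regulator of the oxidative stress response. Beside ITGB3, the platelet integrin beta subunit, a region in EFCAB13-DT (chr17:47315421-47316132) fell from 52.5 and 54.8 CPM at 0 h to 32.7 and 35.4 CPM at 6 h and 17.5 and 14.9 CPM at 72 h. The log2 fold change was -1.73 (SE 0.25, adjusted p 0.002996). Rad21 fell there (-1.17, adjusted p 0.00272) while H3K27ac rose (1.17). A region inside ITGB3 itself, chr17:47288472-47288818, rose from 1.02 and 3.61 CPM to 7.60 and 9.13 CPM (1.94, SE 0.56, adjusted p 0.0464). Beside GP5, a platelet glycoprotein, a region in ATP13A3 fell from 31.9 and 31.4 CPM to 12.9 and 12.2 CPM (-1.33, SE 0.29, adjusted p 0.0165).

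Erythroid genes held 57 regions, with 1 higher, 3 lower and 11 stable (median -0.09). The share called, 7.02%, was near the 6.81% of all tested regions. Of the losses, 2 lay at GYPB, which encodes a red cell surface protein. In GYPB, chr4:144018250-144018890 fell from 19.1 and 19.8 CPM at 0 h to 4.86 and 9.36 CPM at 6 h and 6.22 and 5.76 CPM at 72 h (-1.70, SE 0.34, adjusted p 0.0115). Rad21 fell by 2.11 and H3K27ac by 2.92 on the log2 scale at that place. Beside GYPB a further region fell from 22.7 and 21.7 CPM to 5.07 and 8.99 CPM (-1.61, SE 0.31, adjusted p 0.00998). GYPB belongs to a family of near-identical copies, so its counts are uncertain. The rise lay in BCL11A, a repressor of fetal globin, from 0.76 and 0.72 CPM to 5.53 and 6.60 CPM (2.98, SE 0.66, adjusted p 0.0178).

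Calls in the remaining lists are set against the same 6.81% of all tested regions. AP-1 and early response genes held 73 regions with 3 higher (2 beside JUNB, 1 beside MAFK) and 2 lower (beside FOSB), 6.85% called in all. The 2 regions beside FOSB were strong, with 169 and 167 CPM at 0 h and 74.2 and 83.6 CPM at 72 h in chr19:45478224-45479408 (-1.09, SE 0.28, adjusted p 0.0319). Genes of CTCF, cohesin and their loaders held 64 regions with 1 higher (HDAC8) and 3 lower, so that 6.25% were called. The losses lay in STAG1, a cohesin subunit (-1.23, SE 0.29, adjusted p 0.0221), NIPBL, the cohesin loader (-0.99, SE 0.24, adjusted p 0.0271), and ZNF143, a factor that binds promoters (-1.28, SE 0.32, adjusted p 0.0272). HOX clusters held 30 regions, of which 2 were higher, 1 lower and 11 stable (36.7%, against 21.2% of all). Imprinted genes held 57 regions with 10 stable and a single loss, in RTL1 and MEG8 (-1.06, SE 0.26, adjusted p 0.0274). Clustered protocadherins held 29 with 3 stable and a single loss, at PCDHA2 (-1.39, SE 0.38, adjusted p 0.0369). Over all lists the 34 calls became 2 and 0 without replicates 1 and 2 at 0 h and 2 without either 72 h library.

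A minority of changed regions stood beside another one called the same way. Of the 2324 higher regions, 617 (26.5%) stood in 255 runs of at least 2 adjacent tested regions called the same way. Of the 1581 lower regions, 189 (11.95%) stood in 91 runs, and the longest held 3. The longest higher runs lay in ribosomal RNA gene units on the short arm of chromosome 21, with 11 regions at RNA45SN3 and 9 at RNA45SN2. RNA45SN genes encode the precursor of the large ribosomal RNAs. All 24 tested regions in the 3 RNA45SN spans were called higher. Summed over the 9 regions of RNA45SN2, CTCF held 1436 and 879 CPM at 0 h, 1873 and 956 CPM at 6 h, and 5463 and 4737 CPM at 72 h. Both late libraries stood apart, and no region of these units was called at 6 h. Rad21 was called higher at 9 of 9 tested regions of RNA45SN2 and 9 of 9 of RNA45SN3, with medians of 2.07 and 2.05. Jun was called higher at none of them. In both units some CTCF regions overlapped the same Rad21 region, which was then counted more than once. The units are near-identical repeats, so how the counts fall between copies is uncertain.

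Gains were most frequent on chromosome 21, which carries these units. It had the largest share of higher regions, 81 of 898 (9.02%), with 34 of 202 in its first 13 Mb (16.8%) and 47 of 696 in the rest (6.75%). Chromosome 22 followed with 5.89% and chromosome 18 with 5.34%, and chromosome X had the lowest share with 1.57%. Lower regions were most frequent on chromosomes 19 (4.71%) and 17 (4.27%) and least frequent on chromosome 18 (1.34%).

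**Figure D5:**
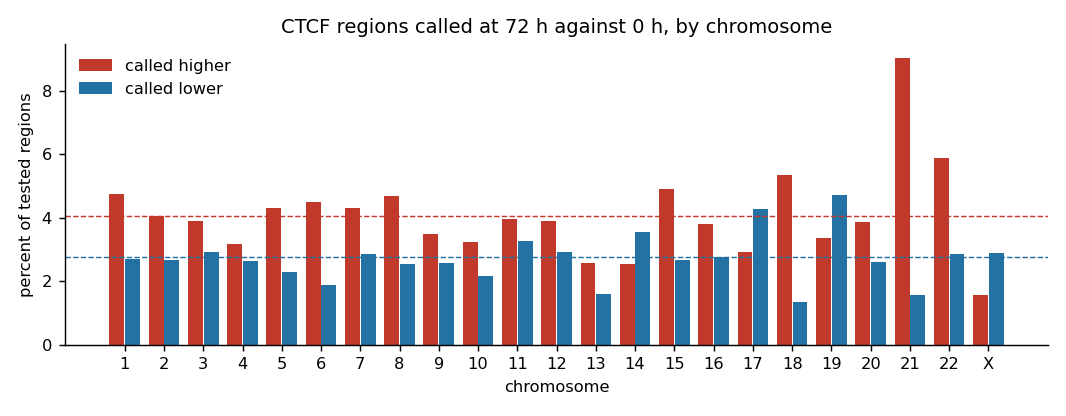
Percent of tested CTCF regions called higher or lower on each chromosome, with dashed lines at the shares over all tested regions (4.05% and 2.76%). Chromosome 21 stands highest for gains with 9.02%, and chromosomes 19 and 17 stand highest for losses.

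The longest higher run outside the ribosomal units lay in PTPRM, a receptor tyrosine phosphatase of cell contacts, with 6 regions over 98817 bases on chromosome 18. Its values ran from 1.32 to 3.79, and Rad21, H3K27ac and Jun were each called higher at 4 of 4 tested. Neighbouring CTCF regions that shared a region of another antibody were each counted, as happened here for H3K27ac and Jun. At chr18:8116398-8116966 CTCF went from 2.55 and 1.44 CPM at 0 h to 5.83 and 2.85 CPM at 6 h and 14.3 and 15.03 CPM at 72 h (2.81, SE 0.46, adjusted p 0.00486). Genes chosen after their counts were seen include CAMTA1, a calmodulin-binding transcription activator, in which 12 of 32 tested regions rose and 2 fell. CNIH3 held 7 rises among 15 regions, AFAP1 held 6 among 12 and ADCY2, an adenylyl cyclase, held 6 among 14. Among losses, ST7 held 4 among 11 regions, with 1 gain, and RERE held 3 among 19. In RERE 13 regions were unresolved, and its values ran from -1.603 to 1.85. The genome-wide shares were 4.05% for gains and 2.76% for losses. The counts guided the choice of these genes, so setting them against those shares is not a test.

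The lower runs were short. In HDAC5, a class II histone deacetylase, 3 adjacent regions fell, with log2 fold changes of -1.83, -1.68 and -1.87. The strongest, chr17:44098112-44098582, went from 21.2 and 25.3 CPM to 9.39 and 11.4 CPM at 6 h and 4.38 and 7.87 CPM at 72 h (SE 0.32, adjusted p 0.00618). A run between TSC22D2 and SERP1 had 3 losses from -2.73 to -0.84, with Rad21 called lower at both regions tested. A run of 3 in PCBD2 lay in pseudogenes copied from the mitochondrial genome. Of 19 tested regions in spans of such pseudogenes, 5 were lower (26.3%, against 2.76% of all tested regions) and none was higher or stable (median -1.43). The mitochondrial share of counts fell over the same libraries, as given above, and its part in these losses was not tested.

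The 6 stable regions with the highest mean level are given as a description. In the immunoglobulin lambda locus, chr22:22720069-22720822 held 455 and 499 CPM at 0 h and 412 and 424 CPM at 72 h (log2 fold change -0.19, interval -0.97 to 0.59), although H3K27ac rose there by 5.47. Also on chromosome 22, chr22:22954324-22956263 held 485 and 462 CPM at 0 h and 498 and 453 CPM at 72 h (0.01, interval -0.79 to 0.81). The other 4, on chromosomes 1 and 16, held 279 to 423 CPM in the 0 h and 299 to 443 CPM in the 72 h libraries. At these 4 places Rad21 held 367 to 536 CPM, Jun 233 to 311 CPM and H3K27ac 4.27 to 8.33 CPM at 0 h. Jun was called lower at all 4. The 6 h CTCF libraries lay apart, with 710 and 322 CPM at the chromosome 16 region. Whether the signal there is particular to CTCF was not tested. The neighbouring alpha-globin genes HBA1 and HBA2 shared the same 2 tested regions, and both regions were stable.

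The authors' deposited table labels 56550 of the tested regions static, 537 upEarly, 231 upLate, 33 downEarly and 3 downLate. Regions called higher here included 2068 labelled static in the authors' deposited table, 174 upEarly, 74 upLate and 8 downEarly. Regions called lower included 1545 labelled static, 30 upEarly and 6 upLate in the authors' deposited table, and none labelled downEarly or downLate. How those labels were assigned is not given in the sources used here.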

How the data were processed

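CTCF, Rad21, H3K27ac and Jun were profiled in K562 cells, with 2 libraries per antibody and time, grouped by their titles. The region tables hold raw read counts per region and library, deposited by the authors as whole numbers. The peak lists hold peaks of single libraries with the authors' −log10 q-value, used as given, and at least 1 base counted as overlap. The submitters' processing notes list Trim Galore 0.4.3, BWA 0.7.17, SAMtools 1.9, deepTools 3.0.1, MACS2 and bedtools 2.26, with the builds hg19 and hg38, and give no roles. Contig names and positions fit GRCh38, so genes and promoters came from RefSeq tables of GRCh38.p14. How the regions were built is not given in the sources used here. The log2 fold changes and p-values in the authors' deposited table were not used, since its adjusted p-values for 6 h and 72 h are identical.

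Counts were fitted with edgeR 4.0.16 (R 4.3.3): filterByExpr by group, TMM scaling and the quasi-likelihood test over the 6 CTCF libraries at 3 time points, without a replicate block. P-values were adjusted by Benjamini-Hochberg over all 58156 tested regions of the table, and the SE is the log2 fold change divided by the square root of F. Counts in regions are part of each library's reads, whose totals were not used here. The script was tested on simulated data. At each CTCF region the overlapping region of another antibody with the highest mean level was read. A region of another antibody chosen for several CTCF regions was counted at each of them. Each promoter window was assigned to the overlapping CTCF region with the highest mean level.

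Regions named in the text are the 10 largest and 10 smallest log2 fold changes among calls with a mean level at or above the median and groups that do not overlap, the 6 stable regions with the highest level, up to 2 calls per gene list by adjusted p, the 3 longest runs per direction, and the 4 promoter calls per direction with the smallest adjusted p. Others were chosen after their values were seen. One result is not reported here. Regions, gene lists and tests were chosen with earlier results of these data known. Alternatives were DESeq2 1.42.0, other scalings and filters, a replicate block and leaving out each library.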

Additional observations from a re-analysis of the deposited data

How the results depend on the processing

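The 3905 CTCF calls became 831 with DESeq2, 1874 with loess offsets, 441 with a mean count of at least 50, 326 at an adjusted p under 0.01, 11254 with only the 0 h and 72 h libraries and 7101 with total counts scaling. Total counts on chromosomes 1-22 and X, chosen after seeing the data, gave 4415. Without a 0 h or 72 h library the calls ranged from 15 to 492, and without a 6 h library (added after seeing the data) from 10263 to 10292. The 12157 stable regions became 5688 with DESeq2 and 369 when the interval had to lie within 1.5-fold, and ranged from 4319 to 16227 without single libraries. The 34 calls beside listed genes became 8 with DESeq2, 16 with loess offsets, 2 with a mean count of at least 50, 92 with only the 0 h and 72 h libraries and 63 with total counts scaling, and ranged from 0 to 82 without single libraries. Peaks absent at 0 h and present in both 72 h libraries covered 11.8% of higher regions when weaker peaks (−log10 q under 10) were left out. The share of lower CTCF regions with Rad21 called lower ranged from 5.95% to 27.2% without single Rad21 libraries. Of 100 alternative values of these summaries, 65 stayed within 1.5 times the reported value. No named region reversed its direction in a call under these settings. Nearly all called regions had groups that do not overlap, so leaving out a library could hardly reverse them. Of 71 named regions called changed, 55 stayed called with DESeq2, which gave 70 of them an adjusted p. All 71 stayed called with a replicate block and with only the 0 h and 72 h libraries. The causes were not tested.

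Same-numbered CTCF libraries deviated together weakly, with correlations of 0.124 (0 and 6 h), 0.0796 (0 and 72 h) and 0.103 (6 and 72 h). These values cannot show whether same-numbered libraries came from the same culture, and the labels do not say. With a replicate block the CTCF calls numbered 7069 and the calls beside listed genes 57.

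With 2 libraries per group and a median of 18 to 54 counts per region, most regions were neither called changed nor stable, and of the regions in the lowest group by level 883 were called higher and 58 lower.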
